A study of Mus musculus with 11 samples.

Results

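The 10 genes followed here are genes of ion entry, traced through the earliest stages of T cell development in the thymus, out of 35896 genes in the quantification. They were the ATP-gated channels P2rx1, P2rx4 and P2rx7, the sodium channel beta subunit Scn4b, the store-operated calcium channels Orai1 and Orai2, their activators Stim1 and Stim2, and the calcium release channels Itpr1 and Itpr3. The list was drawn up from the function of the genes together with earlier results of these data: P2rx1 was chosen by its counts in DN3 cells, which were higher without Arpp21, and Scn4b by its high counts at DN3. Those values are therefore given as a description, without a test.

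The libraries came from sorted double-negative thymocytes of C57BL/6J mice, by the labels, at the DN2 stage and at the following DN3 stage. WT mice gave 3 libraries at each stage. Mice in which both copies of Arpp21, an RNA-binding protein, had been disrupted by a CRISPR deletion (Arpp21-/-) gave 2 libraries at DN2 and 3 at DN3. The study's methods describe a single knockout line that lacks Arpp21 in every cell rather than in thymocytes alone, and they give mice of both sexes over a wide range of ages without tying an age to a library. No treatment was applied to any group. The sources do not say whether replicates were separate mice, so p-values measure the spread between these libraries only.

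Depth ran from 14531762 to 63109504 estimated counts per library (median 21501831). Arpp21 itself read 183, 125 and 136 CPM (counts scaled to the size of each library) in the DN2 WT libraries and 86.9 and 28.5 CPM in DN2 Arpp21-/-, and 386, 336 and 312 CPM in DN3 WT against 335, 221 and 142 CPM in DN3 Arpp21-/-. The 2 groups overlapped at DN3, and a sum over the gene does not measure the loss of the deleted exon. There were 2 libraries that stood apart, DN2 Arpp21-/- replicate 2 and DN3 Arpp21-/- replicate 3: against the other libraries of their groups, the 218 genes with transcripts of 8000 nt or more were lower by a median of -2.36 and -1.62 on the log2 scale, while the 784 genes under 1000 nt were higher by 2.02 and 1.04. Where a channel or receptor gene was called in Arpp21-/- cells, its value without them is given as well. Leaving both out keeps replicate 1 alone for DN2 Arpp21-/-, with a spread taken from the other groups. Log2 fold changes of that fit that involve DN2 Arpp21-/- are therefore given without a p-value. Markers of DN2 and DN3 thymocytes were all detected in every group (8 of 8), but their summed level differed between libraries. It ran from 2415 to 3153 CPM in DN2 WT and was 389.5 and 2866 CPM in the 2 DN2 Arpp21-/- libraries. At DN3 it ran from 3098 to 3666 CPM in WT and from 1910 to 3961 CPM in Arpp21-/- libraries. The 5 B cell markers summed to between 38.6 and 71.9 CPM over the libraries, nearly all of it Cd79b, while Cd79a, Ms4a1 and Ebf1 averaged under 1 CPM in every group and Pax5 was at 0 throughout.

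P2X receptors are channels that open when ATP binds outside the cell and let sodium and calcium in; P2rx7 needs far more ATP than P2rx1 or P2rx4 and can lead to cell death in T cells. Store-operated entry is the main route of calcium into lymphocytes after receptor signalling: the inositol trisphosphate receptors (Itpr genes) release calcium from the endoplasmic reticulum, the Stim proteins sense that the store is empty, and they open the Orai channels in the plasma membrane. Scn4b encodes a beta subunit that modulates voltage-gated sodium channels and is best known from muscle, heart and nerve.

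The clearest pattern concerned which part of P2rx1 was read. P2rx1 (ENSMUSG00000020787.14) lies on the plus strand of chromosome 11 of GRCm38 from 72999103 to 73015200, overlaps no other annotated gene, and has 3 annotated transcripts. P2rx1-201 is the full-length coding transcript with 12 exons and 2486 nt. P2rx1-202, also coding, skips an exon. P2rx1-203 is annotated as a retained intron: it begins 10688 nt downstream of the start of P2rx1-201, inside intron 6, runs on into exon 7 and holds 6 exons and 1805 nt. It lacks the first 817 bases of P2rx1-201, and all of its sequence but the first 139 bases is shared with that transcript. The bases that tell the transcripts apart are shown here from the GENCODE M21 transcripts, with exon 7 in capitals. In P2rx1-203 (chr11:73009791-73009959, plus strand) the lower-case letters are the intron 6 bases that no other P2rx1 transcript carries, and in P2rx1-201 they are the last 30 bases of exon 6 (chr11:73009637-73009666), joined to the same start of exon 7 (chr11:73009930-73009959).
P2rx1-203: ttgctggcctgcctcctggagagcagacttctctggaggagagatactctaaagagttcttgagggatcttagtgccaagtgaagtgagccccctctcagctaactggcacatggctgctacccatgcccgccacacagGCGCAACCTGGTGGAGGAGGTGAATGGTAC
P2rx1-201: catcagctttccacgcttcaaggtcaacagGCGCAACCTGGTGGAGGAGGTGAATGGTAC

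**Figure D1:**
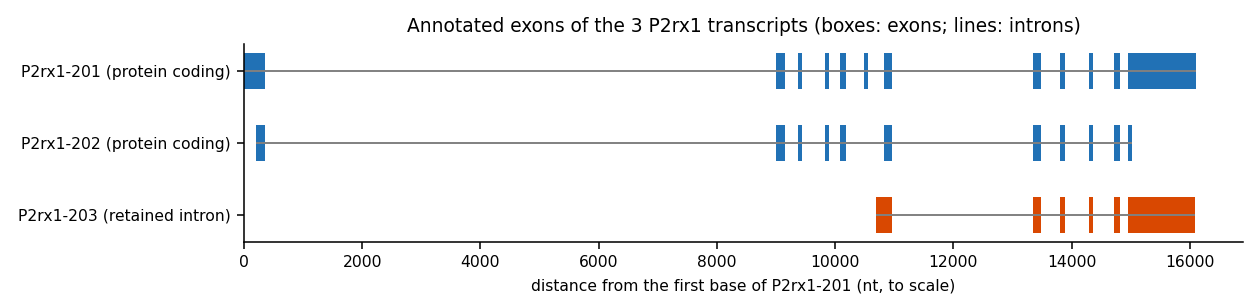
Exons of the 3 annotated P2rx1 transcripts, drawn to scale against the distance in nt from the first base of P2rx1-201 (boxes, exons; lines, introns). P2rx1-203 begins 10688 nt downstream and shares all later exons with P2rx1-201.

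In DN2 cells the counts of P2rx1 lay on the full-length coding transcript. P2rx1-201 held 100%, 100% and 98.8% of the gene's counts in the 3 WT libraries and 100% and 94.8% in the 2 Arpp21-/- libraries, and P2rx1-203 was at 0 in all 5. In DN3 cells most counts had moved to P2rx1-203. Its share was 82.8%, 86.5% and 88.6% in WT and 87.9%, 89.5% and 96.0% in Arpp21-/- libraries, so that every DN3 library of either genotype lay above every DN2 library. In CPM, P2rx1-203 stood at 5.90, 7.86 and 4.99 among WT libraries of this stage and at 19.4, 20.6 and 19.4 among Arpp21-/- libraries.

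In WT the rise of P2rx1-203 from DN2 to DN3 was at least 49.1-fold, taking 3 counts per library as the floor for the DN2 libraries at 0, and in Arpp21-/- cells it was at least 200-fold. These are descriptions without a test, because P2rx1 was chosen by counts of the same DN3 libraries and P2rx1-203 could be fitted only through them.

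P2rx1-201 moved the other way in WT. It read 9.46, 7.08 and 4.78 CPM at DN2 and 1.24, 1.25 and 0.445 CPM at DN3, without overlap and 7.27-fold lower on the means. The log2 fold change was -2.86 (SE 0.658), and -2.85 (SE 0.541) without the 2 libraries that stood apart, also without a test. P2rx1-202 reached at most 0.323 CPM in any library.

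The files give estimated counts per transcript and no reads per exon, and the counting program divides reads over the transcripts that could have produced them. They therefore do not say whether reads cover the intron 6 bases shown above or only exons 7 to 12. In the 2 libraries in which long transcripts were low, the P2rx1-203 share was 0% at DN2, as in the other DN2 libraries, and 96.0% at DN3, the highest of the DN3 libraries. Whether the loss of long transcripts altered these shares was not tested.

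**Figure D2:**
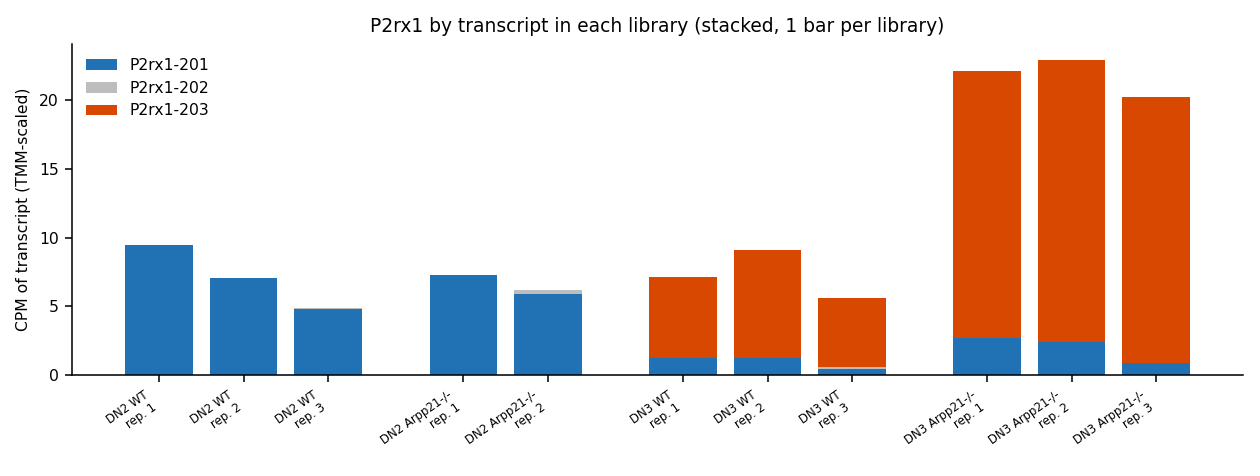
CPM of the 3 P2rx1 transcripts, stacked, with 1 bar per library. The 5 DN2 bars consist of P2rx1-201 with little P2rx1-202; the 6 DN3 bars consist mostly of P2rx1-203, and the 3 DN3 Arpp21-/- bars are the tallest.

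The gene total of P2rx1 hid this exchange in WT cells. It was 9.33, 7.00 and 4.79 CPM in DN2 WT and 7.12, 9.00 and 5.57 CPM in DN3 WT. These groups overlapped, with a log2 fold change of 0.04 (SE 0.327). No test is given, because the comparison shares the DN3 WT libraries with the one by which the gene was chosen. DN2 Arpp21-/- libraries read 7.04 and 6.68 CPM, within the WT range (log2 fold change -0.04, SE 0.366, edgeR's quasi-likelihood test, Benjamini-Hochberg adjusted p = 0.958, interval -0.75 to 0.68). DN3 Arpp21-/- libraries stood alone at 21.8, 22.4 and 21.1 CPM, and the lowest of them was 2.34-fold above the highest DN3 WT library.

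By that difference P2rx1 had been chosen, so it carries no test: the log2 fold change was 1.59 (SE 0.334), and 1.61 (SE 0.318) without the 2 libraries that stood apart. Both transcripts were higher in DN3 Arpp21-/- than in DN3 WT, P2rx1-203 by 1.66 on the log2 scale (SE 0.45) and P2rx1-201 by 1.02 (SE 0.626). P2rx1-201 read 2.70, 2.40 and 0.852 CPM in DN3 Arpp21-/- libraries and overlapped with DN3 WT, whereas the lowest P2rx1-203 value was 2.46-fold above the highest in WT. P2rx1 is abundant in platelets, whose markers were near 0 at DN3: the 5 markers summed to between 0.0457 and 0.256 CPM in DN3 WT and between 0.327 and 0.888 CPM in DN3 Arpp21-/- libraries, with Pf4 and Ppbp at 0 in DN3 WT and Gp9 at 0 in DN3 Arpp21-/-. At DN2 the same list summed to at most 25.7 CPM in WT and 35.2 CPM in Arpp21-/-, almost all of it Itga2b, an integrin subunit that was at 6.90 CPM or more in every DN2 library. In bulk samples, fewer cells of a type and less RNA per cell cannot be told apart.

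**Figure D3:**
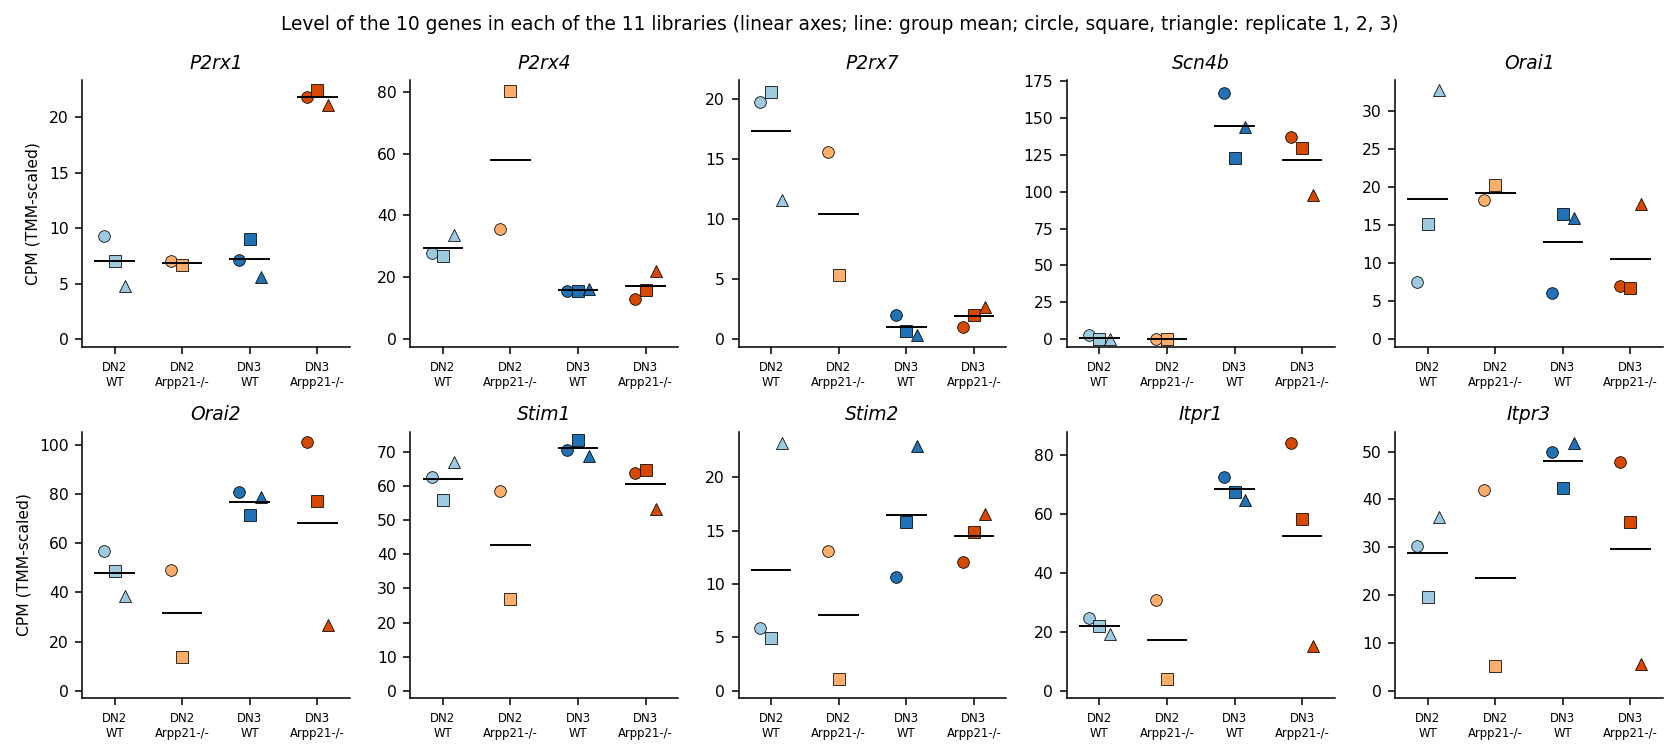
CPM of the 10 genes in each library on linear axes, each panel with its own scale (points, libraries; lines, group means; n = 3, 2, 3 and 3). DN3 Arpp21-/- libraries stand above all others for P2rx1, DN2 libraries above DN3 libraries for P2rx7 and P2rx4, and Itpr1, Itpr3 and Orai2 are low in DN2 Arpp21-/- replicate 2 and DN3 Arpp21-/- replicate 3.

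P2rx7, the receptor that responds to high ATP, fell as WT cells passed from DN2 to DN3. The gene (ENSMUSG00000029468.17, chromosome 5, 122643911 to 122691432, plus strand) read 19.8, 20.6 and 11.6 CPM in DN2 WT and 2.01, 0.725 and 0.354 CPM in DN3 WT, a 16.8-fold difference of the means without overlap. The share of all genes whose groups did not overlap between the stages is not given. Lack of overlap between stages, here and for the genes below, is therefore a description only. The log2 fold change was -4.07 (SE 0.732, edgeR adjusted p = 0.012). P2rx7 was the single member called in this comparison, where 4.12% of all 13749 genes were called. Of the 10 members, P2rx1 and Scn4b are given there without a test. The call was lost without DN3 WT replicate 2 (adjusted p = 0.0746) and without DN3 WT replicate 3 (adjusted p = 0.0522), with log2 fold changes of -3.87 and -3.66.

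In Arpp21-/- cells P2rx7 read 15.7 and 5.32 CPM at DN2 and 1.03, 2.02 and 2.66 CPM at DN3. The groups again did not overlap, with a log2 fold change of -2.47 (SE 0.726) that missed the threshold (adjusted p = 0.0956). Without the 2 libraries that stood apart it was -3.37, with replicate 1 alone for DN2 Arpp21-/-. The stage differences of the genotypes were not shown to differ (interaction 1.60 on the log2 scale, SE 0.995, adjusted p = 0.964).

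P2rx4, the most abundant P2X receptor at DN2, was also lower at DN3. It read 28.0, 26.9 and 33.6 CPM in DN2 WT, 15.5, 15.5 and 16.4 CPM in DN3 WT, 35.5 and 80.3 CPM in DN2 Arpp21-/-, and 13.01, 16.1 and 22.2 CPM in DN3 Arpp21-/- libraries. Every DN3 library of a genotype lay below every DN2 library of that genotype. The drop in Arpp21-/- cells passed the test (log2 fold change -1.76, SE 0.371, edgeR adjusted p = 0.026), as the single member called of 8 tested, beside 4.34% of all genes. It rested partly on DN2 Arpp21-/- replicate 2, without which it was -1.09 (SE 0.321, adjusted p = 0.131). Leaving out any DN3 WT library, DN3 Arpp21-/- replicate 1 or DN3 Arpp21-/- replicate 2 also ended the call, with adjusted p between 0.0538 and 0.117. Without both libraries that stood apart the drop was -1.30, with replicate 1 alone for DN2 Arpp21-/-.

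In WT the drop of P2rx4 was -0.90 on the log2 scale (SE 0.339, adjusted p = 0.237), and -0.88 (SE 0.17, adjusted p = 0.00843) without the libraries that stood apart, which lowered the common dispersion of the fit from 0.281 to 0.104. Its difference between the genotypes' stage changes was not called (-0.86, SE 0.502, adjusted p = 0.964). Markers of other cells moved with stage as well: the 7 myeloid markers summed to 114 to 159 CPM in DN2 WT and 29.9 to 36.9 CPM in DN3 WT, and to 134 to 357 CPM in DN2 Arpp21-/- and 34.7 to 47.6 CPM in DN3 Arpp21-/- libraries. Among them Tyrobp, an adaptor of activating receptors, and Fcer1g, a signalling chain of Fc receptors, were called lower at DN3 in both genotypes, while S100a8 and S100a9 stayed under 1 CPM in every library. The 6 gamma delta T cell markers summed to 2998 to 3389 CPM in DN2 WT, 2064 to 2315 in DN3 WT, 3518 to 7654 in DN2 Arpp21-/- and 1367 to 1865 in DN3 Arpp21-/- libraries. They did not move together: from DN2 to DN3, 2 had positive and 4 negative log2 fold changes in each genotype. In WT, Tcrg-C1 differed by -1.42, Trdc by 0.37 and Tcrg-C4 by 0.30. The part of these cells in the P2rx4 and P2rx7 values was not tested.

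The other 4 P2X genes were close to absent. P2rx2, P2rx3, P2rx5 and P2rx6 all fell below the filter on low counts, and the highest of them, P2rx3, averaged 0.301 TPM (a level scaled to transcript length and library) over the 11 libraries. A further list held 11 genes, of which 9 passed the filter on low counts. It took the genes with a P2ry name, which encode receptors that signal through G proteins, and the adenosine receptor gene Adora2a. Genes of proteins that release or degrade ATP made up the rest. From DN2 to DN3, P2ry14 was called lower and 0 genes of the list were called higher in each genotype. Over all genes, 4.12% were called in either direction in WT and 4.34% in Arpp21-/- cells. P2ry13, a receptor for ADP, fell by 5.36 on the log2 scale in WT (SE 1.2), from 8.60 ± 3.71 to 0.203 ± 0.214 CPM (SD, n = 3 each). No test of P2ry13 is given, because it passed the filter on low counts through its DN2 libraries. P2ry14, a receptor for UDP-glucose, fell by 1.55 (SE 0.266, edgeR adjusted p = 0.00926), from 40.8 ± 5.84 to 13.9 ± 2.39 CPM.

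In Arpp21-/- cells P2ry13 fell by 5.72 (SE 1.3), again without a test, and P2ry14 by 2.00 (SE 0.289, edgeR adjusted p = 0.00432). Without both libraries that stood apart these log2 fold changes were -5.21 and -1.78, with replicate 1 alone for DN2 Arpp21-/-. With the Arpp21-/- libraries alone P2ry14 was not called (adjusted p = 0.176), and on the log2(TPM + 1) scale limma did not call it in Arpp21-/- cells (adjusted p = 0.116). The P2ry14 call in WT was lost without DN3 WT replicate 1 or 2 (adjusted p = 0.0574 and 0.0675). The median of the list in WT was -1.42 on the log2 scale, beside 0.01 for all genes. The most abundant members by TPM were P2ry10 (34.03 ± 6.30 TPM in DN2 WT and 80.3 ± 1.78 TPM in DN3 WT), the ATP release channel Panx1 (53.2 ± 28.5 and 43.7 ± 22.7 TPM) and the adenosine receptor Adora2a (29.6 ± 4.76 and 16.9 ± 2.23 TPM; SD, n = 3 each), none of them called by edgeR in any comparison. The P2ry10 libraries did not overlap between stages in WT, at 59.3 to 76.0 CPM in DN2 and 146 to 150 CPM in DN3 (log2 fold change 1.13, SE 0.354, adjusted p = 0.135), and DESeq2 called Adora2a lower at DN3 in WT. The list had no call in Arpp21-/- against WT at either stage.

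Scn4b went from near silence to the most abundant of the 10 genes. The gene (ENSMUSG00000046480.6, chromosome 9, 45138395 to 45154152, plus strand) had 68, 3 and 0 counts in the DN2 WT libraries and none in the 2 DN2 Arpp21-/- libraries. At DN3 it had 3660, 2877 and 3251 counts in WT and 3184, 2379 and 1207 in Arpp21-/- libraries, which is 167, 123 and 144 CPM and 137, 130 and 97.4 CPM. The rise in Arpp21-/- cells was at least 1220-fold with a floor of 3 counts per library at DN2. In WT, DN2 replicate 1 alone held nearly all DN2 counts, at 2.05% of the DN3 WT mean; the fitted log2 difference was 7.13 with it and 11.03 without it. Scn4b was chosen for this rise, so no test is given. The 6 markers of later, double-positive (DP) thymocytes also summed higher at DN3, to 405 to 501.5 CPM in WT against 126 to 151 CPM at DN2, and to 276 to 452 CPM in Arpp21-/- against 43.5 to 131.5 CPM, and their part in the sodium channel values was not tested.

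Between genotypes the DN3 levels of Scn4b overlapped, at 144.5 ± 22.2 CPM in WT and 121 ± 21 CPM in Arpp21-/- (SD, n = 3 each), and the lowest value was that of DN3 Arpp21-/- replicate 3. The log2 difference of Arpp21-/- from WT at DN3 was -0.25 (SE 1.02), again without a test. At DN2 WT had a mean of 1.03 CPM that came from replicate 1, and no test is given because the gene passed the filter on low counts through its DN3 libraries.

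A neighbouring sodium channel gene was higher at DN3 as well. Scn2b, another beta subunit, lies 8324 bases from Scn4b on the same strand of chromosome 9. It had at most 2 counts in a DN2 library while at DN3 the WT libraries read 3.15, 3.07 and 2.70 CPM and the Arpp21-/- libraries 7.73, 6.97 and 4.36 CPM. It rose in WT (log2 fold change 6.46, SE 0.95) and in Arpp21-/- cells (8.26, SE 1.21). No test of the rise is given, because Scn2b passed the filter on low counts through its DN3 libraries. In Arpp21-/- cells the log2 fold change was 10.4 without both libraries that stood apart.

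All DN3 libraries lay above all DN2 libraries for Scn4b and Scn2b. Every DN3 Arpp21-/- library of Scn2b was above every DN3 WT library, but the difference was not called (log2 1.10, SE 0.676, adjusted p = 1). Per transcript length Scn2b stayed low, at a mean of 0.897 TPM over the libraries, against 44.0 ± 7.50 TPM for Scn4b in DN3 WT. Scn8a and Scn11a, pore-forming subunits, averaged 0.362 and 0.0601 TPM. On the log2(TPM + 1) scale the rise of Scn2b in WT was 1.04 by limma.

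**Figure D4:**
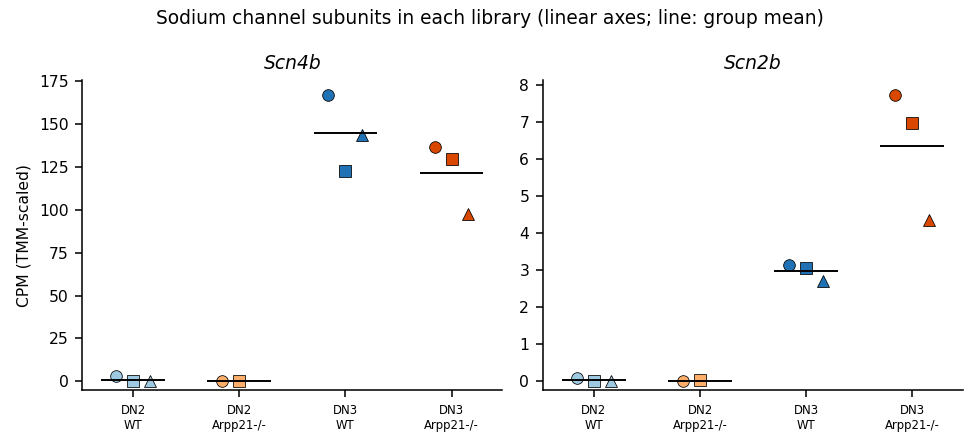
CPM of Scn4b and Scn2b in each library on linear axes with separate scales (points, libraries; lines, group means). The 5 DN2 libraries lie at or near 0 in both panels and the 6 DN3 libraries above them, with Scn4b reaching 167 CPM and Scn2b staying under 8 CPM.

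Among the calcium release channels, Itpr1 was higher at DN3. It read 24.6, 22.1 and 19.4 CPM in DN2 WT and 72.6, 67.5 and 64.8 CPM in DN3 WT, a 3.10-fold difference without overlap. With all libraries the log2 fold change of 1.63 (SE 0.712) did not pass (edgeR adjusted p = 0.344). Without the 2 libraries that stood apart it was 1.65 (SE 0.167) and passed (adjusted p = 0.000261), as it did with the WT libraries alone (adjusted p = 0.000402). In Arpp21-/- cells Itpr1 read 30.6 and 3.795 CPM at DN2 and 83.9, 58.4 and 15.01 CPM at DN3, where the second DN2 and the third DN3 value are those of the libraries that stood apart. Without them the difference was 1.21 on the log2 scale, with replicate 1 alone for DN2 Arpp21-/-.

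Itpr3 read 30.3, 19.6 and 36.3 CPM in DN2 WT and 49.9, 42.4 and 51.9 CPM in DN3 WT, also without overlap. Its log2 fold change of 0.74 (SE 0.776) was not called (adjusted p = 0.893, and 0.0602 without the libraries that stood apart). In Arpp21-/- libraries it read 42.1 and 5.18 CPM at DN2 and 47.8, 35.3 and 5.65 CPM at DN3. The transcripts of Itpr1 and Itpr3 average 8874 and 8985 nt, the longest of the 10 genes. Both genes, like Orai1, Stim1 and Stim2, overlap the span of an annotated gene on the opposite strand. The reads do not keep strand, and whether exons overlap was not tested.

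The Orai channels differed in their spread within groups. Orai2 read 56.7, 48.7 and 38.5 CPM in DN2 WT and 80.8, 71.5 and 78.7 CPM in DN3 WT, with all DN3 libraries higher. Its log2 fold change of 0.68 (SE 0.519, edgeR adjusted p = 0.75) became 0.70 (SE 0.166, adjusted p = 0.0219) without the libraries that stood apart. In Arpp21-/- libraries it read 49.2 and 13.9 CPM at DN2 and 101.1, 77.3 and 26.9 CPM at DN3. The difference was 1.12 on the log2 scale (SE 0.599, edgeR adjusted p = 0.32), and 0.85 without the libraries that stood apart. Orai1, the pore subunit best known from T cells, spread widely within groups: 7.50, 15.2 and 32.8 CPM in DN2 WT, 6.12, 16.6 and 15.96 CPM in DN3 WT, 18.3 and 20.3 CPM in DN2 Arpp21-/-, and 7.04, 6.81 and 17.8 CPM in DN3 Arpp21-/-. It had no call in any comparison, and all DN3 Arpp21-/- libraries lay below both DN2 Arpp21-/- libraries.

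The gene total of Stim1, the main sensor of store depletion, differed little between the stages in WT. It read 62.8, 56.1 and 67.2 CPM at DN2 and 70.7, 73.7 and 69.0 CPM at DN3 (log2 fold change 0.20, SE 0.29, adjusted p = 0.974, interval -0.37 to 0.77). In Arpp21-/- libraries it read 58.5 and 26.8 CPM at DN2 and 63.8, 64.7 and 53.3 CPM at DN3. Within the gene, the share of Stim1-208, annotated as a retained intron, was higher at DN3. It was 5.34% to 8.55% in DN2 WT and 10.9% to 16.6% in DN3 WT. In Arpp21-/- libraries it was 0.779% to 0.914% at DN2 and 9.49% to 17.0% at DN3. These shares are given without a test, because transcripts were fitted after the data were seen. Stim2, the sensor of smaller store losses, ran from 4.91 to 23.2 CPM in DN2 WT, from 10.7 to 23.0 CPM in DN3 WT, from 1.12 to 13.1 CPM in DN2 Arpp21-/- and from 12.0 to 16.5 CPM in DN3 Arpp21-/- libraries. The WT ranges overlapped between stages, and at DN3 the Arpp21-/- values lay within those of WT.

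The order of the levels per transcript length differed between stages. In DN2 WT P2rx4 (26.9 ± 3.93 TPM), Stim1 (22.7 ± 2.70), Orai2 (22.3 ± 5.99) and Orai1 (16.3 ± 11.8) came first and overlapped with their neighbours, P2rx7 followed at 9.84 ± 3.65, and Itpr1, Stim2, Itpr3 and P2rx1 lay between 5.95 and 4.14 TPM and overlapped, with Scn4b last at 0.313 ± 0.511 TPM (SD, n = 3 each). In DN3 WT Scn4b and Orai2 (35.4 ± 3.84 TPM) overlapped at the top. Stim1 at 28.2 ± 0.863 TPM and Itpr1 at 18.8 ± 0.483 TPM each stood apart from their neighbours, and P2rx7 came last at 0.777 ± 0.459 TPM. P2rx1 was ninth in DN2 WT, DN2 Arpp21-/- and DN3 WT and rose to rank 4 in DN3 Arpp21-/-, at 16.4 ± 4.59 TPM, where it overlapped with Stim1 above it and Itpr1 below it.

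The question of the study's design for these genes, whether loss of Arpp21 changed them at either stage, gave no call among the members tested. At DN3, 0 of the 8 members tested were called in Arpp21-/- against WT (edgeR, with 0 at an unadjusted p under 0.05 and 0 by DESeq2), in a comparison where 0.00727% of all genes were called. Their log2 fold changes ran from -0.70 for Itpr3 (SE 0.776) to 0.87 for P2rx7 (SE 0.676), with a median of -0.21 beside -0.01 for all genes. Groups did not overlap for 2 of all 10 members, P2rx1 above and Stim1 below WT, while 10.5% of all genes had groups that did not overlap. Stim1 differed by -0.23 (SE 0.29, adjusted p = 1, interval -0.80 to 0.34), and by -0.15 without the libraries that stood apart. Without those libraries Orai2 and Itpr1 changed sign, to 0.21 and 0.05, as did P2rx4, from 0.11 to -0.12.

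At DN2, 0 of the 9 members tested were called by edgeR and 0 by DESeq2, 1 had an unadjusted p under 0.05 (P2rx4), and 0% of all genes were called. P2rx4 was the single member of 10 whose groups did not overlap, where 15.8% of all genes did not overlap. Its difference of 0.97 (SE 0.37, adjusted p = 0.336) became 0.29 (SE 0.234) without the libraries that stood apart. A set of 5 members was called if DN2 Arpp21-/- replicate 1 was left out, so that replicate 2 alone stood for its group: P2rx4 higher, and Itpr1, Orai2, Stim1 and Stim2 lower. In replicate 2 Itpr1, Itpr3 and Stim2 were lower than in replicate 1 by -2.86, -2.90 and -3.07 on the log2 scale. Differences between the stages in the effect of genotype were called for 0 of 8 members by edgeR (0 at an unadjusted p under 0.05, 0 by DESeq2) and for 0% of all genes, with adjusted p of 0.964 or more. Without DN2 Arpp21-/- replicate 1, 2 members were called there, P2rx4 and Stim1. For P2rx1 the difference was 1.63 on the log2 scale (SE 0.498), without a test.

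**Figure D5:**
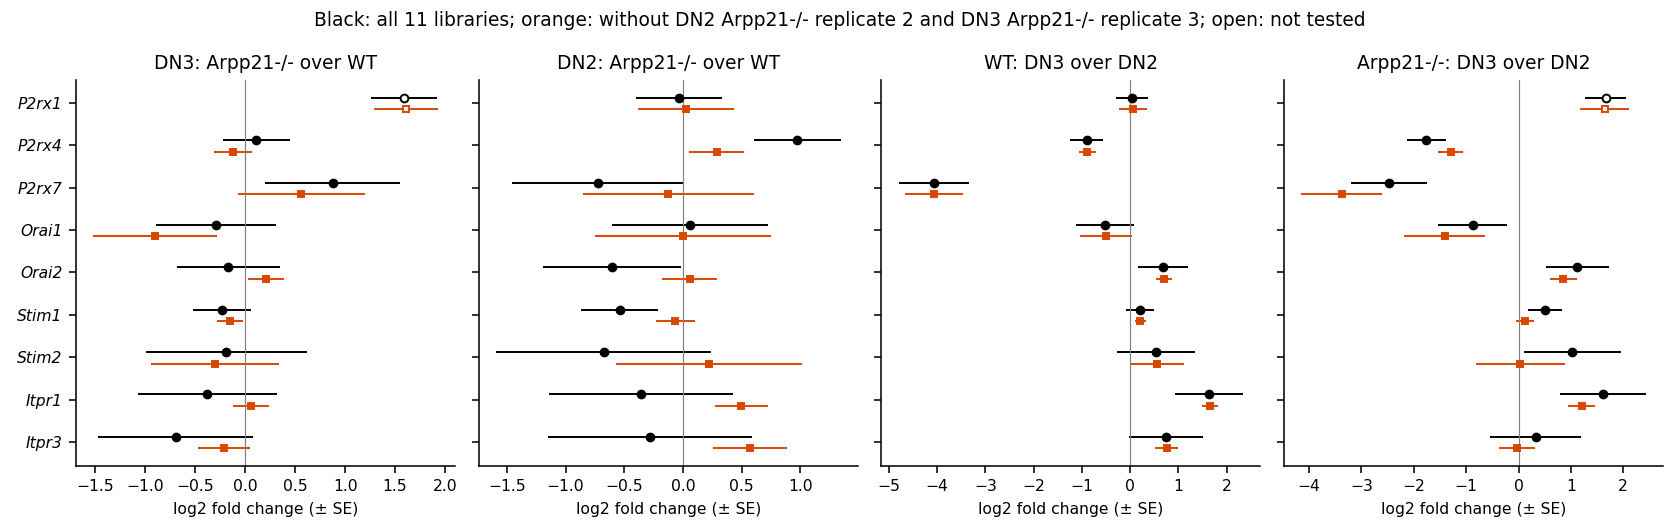
Fitted log2 fold changes of 9 members with SE in 4 comparisons (black, all 11 libraries; orange, without the 2 libraries that stood apart; open symbols, not tested because the rule used them; Scn4b, at or near 0 in DN2, is left out). P2rx7 and P2rx4 lie left of 0 and Itpr1 and Orai2 right of 0 in both comparisons of DN3 with DN2, and the intervals of Itpr1 narrow without the 2 libraries. P2rx1 is drawn filled for DN3 over DN2 in WT, where it is also given without a test.

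Genes of the wider calcium pathway were measured in 4 further lists. None of their genes was called by edgeR, while the DESeq2 calls included the store-operated gene Itpr2, the exchanger gene Slc8b1 and 3 genes of the signal (Calm2, Camk4 and Camkk1), each from DN2 to DN3. From DN2 to DN3 in WT, an unadjusted p under 0.05 was found for 0, 1, 3 and 1 genes of the 4 lists. Of 7 other store-operated channels and regulators 5 were tested. The most abundant were the Stim inhibitor Saraf (189 ± 22.2 TPM in DN2 WT and 293 ± 46.1 in DN3 WT), Itpr2 (21.9 ± 4.06 and 93.2 ± 2.31 TPM), Orai3 (41.6 ± 1.27 and 40.7 ± 4.40 TPM) and the Stim1 activator Tmem110 (8.60 ± 6.86 and 9.82 ± 6.00 TPM). All 8 calcium pumps, exchangers and mitochondrial uptake genes were tested, and they included the endoplasmic reticulum pump Atp2a3 (151 ± 26.9 and 125 ± 18.0 TPM in DN2 and DN3 WT), Letm1 (55.9 ± 9.06 and 62.5 ± 1.23 TPM) and Atp2a2 (16.6 ± 6.43 and 20.4 ± 8.00 TPM; SD, n = 3 each).

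All 17 genes upstream and downstream of the calcium signal were tested. The calmodulin genes Calm2 (827 ± 35.9 TPM in DN2 WT and 559 ± 3.71 TPM in DN3 WT) and Calm3 (246 ± 8.31 and 206 ± 32.6 TPM) were among the most abundant, with the calcineurin subunit Ppp3r1 (51.3 ± 3.93 and 71.8 ± 9.30 TPM). All 5 potassium and TRP channels were tested too. Kcnn4, a calcium-activated potassium channel, led them at 158 ± 15.4 TPM in DN2 WT and 164 ± 13.5 TPM in DN3 WT, before Trpv2 (55.6 ± 9.29 and 42.5 ± 3.57 TPM), Kcna3 (32.5 ± 22.0 and 65.2 ± 43.4 TPM) and Trpm7 (25.4 ± 7.62 and 27.8 ± 5.63 TPM; SD, n = 3 each). In WT from DN2 to DN3 the medians of these 4 lists were 0.44, -0.25, 0.20 and -0.06 on the log2 scale, beside 0.01 for all genes.

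The genes whose pattern over the 11 libraries came nearest to that of P2rx1 were all scarce. By root-mean-square difference of centred log2 CPM these were Mcidas (0.362), Paqr6 (0.383) and Crispld2 (0.407), against a spread of 0.744 in P2rx1 itself, and their DN3 Arpp21-/- means were 1.12, 0.782 and 1.04 CPM. Nearest to Scn4b, whose own spread was 3.77, were Fam163b (0.787), the recombinase gene Rag1 (0.876) and the glucose transporter family gene Slc5a9 (0.913). Fam163b averaged 0.0152 CPM in DN2 WT and 104 CPM in DN3 WT, Rag1 9.82 and 915 CPM, and Slc5a9 0.0884 and 40.7 CPM. In DN3 Arpp21-/- libraries their means were 111, 328 and 95.6 CPM.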

How the data were processed

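RNA of sorted DN2 and DN3 thymocytes was sequenced in 11 libraries (DN2 WT, 3; DN2 Arpp21-/-, 2; DN3 WT, 3; DN3 Arpp21-/-, 3), grouped by the labels. The authors prepared poly-A libraries with a kit that does not keep strand, sequenced read pairs, trimmed them and quantified transcripts with kallisto 0.46 (submitters' processing notes, which name GRCm38). The deposited estimated counts are per transcript and not normalized. The deposited TPM values are scaled per transcript length and library, and the effective length of each transcript is given beside them. Of 119414 transcripts, 116640 (97.7%) matched GENCODE M21 by identifier and were summed to genes.

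Estimated counts were rounded and tested in R 4.3.3 with edgeR 4.0.16 (quasi-likelihood, TMM scaling, filterByExpr with a minimum count of 10 and total of 15, all libraries in 4 groups, two-sided). P-values were Benjamini-Hochberg adjusted over 13749 genes, and called below 0.05. Intervals are 1.96 SE either side. Of the 10 members all passed the filter. DESeq2 1.42.0 and limma 3.58.1 on log2(TPM + 1) or log2(TPM + 0.1) were alternatives. The procedure was tested on simulated data. Tables and plots used Python 3.11.15.

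Members and gene lists were chosen with earlier results of these data known. Named genes were the members, Arpp21, list genes that were called or among the 4 of highest mean TPM of their list, and the 3 genes nearest to P2rx1 and to Scn4b by root-mean-square difference of centred log2(CPM + 0.5). Names of genes singled out otherwise, such as the markers, were chosen after their values were seen. Some list genes are not reported here. A transcript-level fit was added after the data were seen and gives fold changes of P2rx1 transcripts without a test. A test of Scn4b at DN2 had been planned and is not given. Floors of 3 counts cover counting error only, not the division of reads between transcripts.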

Additional observations from a re-analysis of the deposited data

How the results depend on the processing

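Of the numbers of members called, the 11 settings other than leaving out 1 library moved only those from DN2 to DN3. In WT the members called went from 1 to 4 with only the groups compared and to 4 without both libraries that stood apart (P2rx4, P2rx7, Orai2 and Itpr1 in each). In Arpp21-/- cells they went from 1 to 2 by DESeq2, to 0 by limma on log2(TPM + 1) and log2(TPM + 0.1), to 0 with only the groups compared, and to 3 without both libraries. Leaving out 1 library at a time gave 0 to 2 members in WT, 0 to 5 in Arpp21-/- cells, 0 to 5 in Arpp21-/- against WT at DN2, 0 to 2 for the interaction and 0 throughout at DN3. The highest number of each range above 0 was reached without DN2 Arpp21-/- replicate 1. Over all genes, the calls went from 566 to 1191 by DESeq2 and 2230 without both libraries in WT, from 597 to 1600 and 897 in Arpp21-/- cells, from 1 to 16 and 5 in Arpp21-/- against WT at DN3, from 0 to 38 and 0 at DN2, and from 0 to 10 and 0 for the interaction; the cause was not tested.

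Sign changes concerned values that were not called in the edgeR fit of all libraries. In Arpp21-/- against WT at DN3, P2rx4 was -0.11 by limma on log2(TPM + 1) with or without the filter, -0.12 with a pseudocount of 0.1 and -0.12 without both libraries, which also gave Orai2 0.21 and Itpr1 0.054. At DN2, P2rx1 was 0.015 by DESeq2, 0.014 with its size factors, 0.018 with a transcript length offset and 0.023 without both libraries; Orai1 was -0.33 by limma on log2(TPM + 1) with or without the filter, -0.36 with a pseudocount of 0.1 and -0.00085 without both libraries, which gave Orai2 0.059, Stim2 0.22, Itpr1 0.50 and Itpr3 0.57. From DN2 to DN3 in Arpp21-/- cells Itpr3 was -0.026 without both libraries. With 1 library left out at a time the ranges that crossed 0 were, at DN3, P2rx4 -0.12 to 0.27, Orai2 -0.56 to 0.21, Stim2 -0.42 to 0.12 and Itpr1 -0.90 to 0.058; at DN2, P2rx1 -0.25 to 0.22, Orai1 -0.31 to 0.77, Orai2 -1.80 to 0.057, Stim2 -3.34 to 0.39, Itpr1 -2.54 to 0.50 and Itpr3 -2.48 to 0.57; from DN2 to DN3, P2rx1 -0.18 to 0.29 and Orai1 -0.90 to 0.18 in WT and Itpr3 -0.54 to 2.52 in Arpp21-/- cells.

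Correlations of deviations from the group means ran from -0.45 to 0.53 over 15 same-numbered pairs of libraries. Over 30 pairs of unlike number they ran from -0.63 to 0.63. Between the stages, same-numbered WT pairs had 0.29, 0.086 and 0.18, and same-numbered Arpp21-/- pairs had 0.53 and -0.45. Whether a replicate number marks a shared batch or mouse was not tested. With the replicate block 0 members were called in Arpp21-/- against WT at either stage or for the interaction, 1 in WT from DN2 to DN3 (P2rx7, adjusted p = 0.0228) and 1 in Arpp21-/- cells (P2rx4, adjusted p = 0.0386).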
